A study of Oryza sativa with 16 samples.

Results

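Intergenic transcribed loci are stretches of the rice genome from which Cufflinks assembled a transcript in these libraries and over which no gene is annotated. A row of the deposited tables counted where Cufflinks had given it an identifier of its own, it lay on chromosomes 1 to 12, it was at least 300 bp long and at 1 FPKM or more, and it overlapped none of 70610 annotated spans. FPKM is the number of fragments scaled to the length of the transcript and to the mapped fragments of the library, so that levels can be compared between loci of different length. Of 505780 assembled rows, 289925 passed the length and level limits and 20913 of these lay clear of every annotated span. Rows that overlapped were merged over the libraries into 3771 loci, and the 1963 loci found in both replicates of at least 1 of 8 groups form the set. The level of a locus in a library is the highest FPKM of its rows there, and 0 where no row met the rule. Loci are named ITL with a serial number in genome order, and positions are on the IRGSP1.0 build, counted from 1. The members were chosen by their FPKM, length and listing in replicates, so their levels and the libraries that list them are a description, and tests are given only for loci listed in every library of a fit.

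The study asked how a histone H4 variant of rice, H4.V, and its loss alter gene expression with and without salt stress. Seedlings labelled 20 days old were WT or h4v, a knockout made by genome editing, and were grown on plain medium or on medium with 120 mM NaCl. Mature leaves came from WT, from OE_H4V plants that overexpress the variant, from OE_H4C plants that overexpress canonical H4 and from OE_CHMR plants that overexpress a chimera of the variant's N-terminal part and the rest of canonical H4. The study lists the leaf plants as older than the seedlings. All plants were of the indica cultivar Pusa Basmati 1, and the reads were mapped to a japonica genome. The overexpression lines carry a maize ubiquitin promoter construct and were regenerated from callus, which the WT leaf plants were not stated to be, so regeneration and transgene cannot be told apart in leaf. The knockout line also came from regenerated callus, which the WT seedlings were not stated to do. Regeneration and loss of H4.V thus cannot be told apart in seedlings. Each group has 2 libraries, called biological duplicates by the submitters.

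Transcription outside annotated genes has several known sources in plants. Long non-coding RNAs are spliced or unspliced RNA polymerase II transcripts with little coding potential, and many are expressed in a narrow range of tissues or under stress. Other intergenic transcripts are untranslated ends of genes that reach past the annotation, unannotated protein-coding genes, or read-through past a gene's end. The tables give position and level but neither strand nor exons, so these kinds were not separated.

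Relative depth was taken from Cufflinks' confidence intervals, with WT seedling replicate 1 set to 1. It was a median over 123 to 252 genes in the other libraries and ran from 0.545 to 1.203. The median row of the set rested on 38.9 to 52.8 fragments, counted over rows whose lower confidence bound was above 0. Rows with the fewest fragments are thus left out of that median. Such confidence intervals cover counting error only. Summed over the set, the loci held 2.29% to 3.39% of the FPKM of a library. The small subunit of Rubisco, the carbon-fixing enzyme of leaves, was expressed in every library. The root gene RCc3 was at 62.2 to 192 FPKM in seedlings and at 0 in the leaf libraries. The salt-responsive gene RAB16A was at 67.6 to 98.4 FPKM in the 4 salt libraries against 1.97 to 2.97 FPKM in the other seedlings. The salt markers SalT and LEA3 were also higher in all 4 salt libraries than in the other seedlings. The marker P5CS1 was lower with salt in WT, at 34.6 and 40.3 FPKM against 68.9 and 62.3 FPKM. In h4v P5CS1 was at 43.6 and 44.5 FPKM with salt and 38.04 and 39.7 FPKM without. H4.V was at 3369 and 3162 FPKM in OE_H4V and at 0 in the other 14 libraries, WT included, so the knockout label could not be checked from it.

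The loci were shorter and lower than annotated genes. Their median length was 1678 bp, from 309 to 26542 bp, against 2552 bp for the 30384 annotated genes. Of the 1963 loci, 510 lay under 500 bp from the nearest annotated gene, 618 at 500 to 2000 bp, 423 at 2000 to 5000 bp and 412 at 5000 bp or more, with a median gap of 1506 bp. To the nearest annotated span of any kind, including spans left out of that gene list, the median gap was 769 bp. Averaged over the 16 libraries, 1173 loci reached 1 FPKM, and the median of their means was 3.45 FPKM, against 8.63 FPKM for the 15892 genes that reached it. A total of 263 loci had a mean of 10 FPKM or more and 11 of 100 FPKM or more, and the 10 highest held 21.3% of the set's summed FPKM. At the limits of the rule, the rows nearest to 1 FPKM were at 1.00008 FPKM for ITL0582 and 1.00026 FPKM for ITL0545, and the nearest rows left out were at 0.999975 and 0.999498 FPKM. The shortest rows inside were 300 bp long, in ITL0861 and ITL0963, and the nearest outside were 299 bp.

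Most loci were listed in part of the libraries. A total of 263 loci were listed in all 16 libraries and 238 in exactly 2, and 672 were found in both replicates of 1 group only. In seedlings 453 loci were listed in all 8 libraries and in leaves 389, and 437 loci occurred in seedling libraries alone and 334 in leaf libraries alone. A value of 0 is not a measured absence. Of the 15474 values of 0 among 31408, no row covered the locus in 64.7%, a row reached from the locus onto an annotated span in 23.3%, the row was under 1 FPKM in 11.3%, and it was under 300 bp in 0.627%. In 803 loci at least 1 library had a row that reached onto an annotated span, so that there Cufflinks joined the locus to a gene. These include ITL0018, ITL0132, ITL0153, ITL0182, ITL0242, ITL0415, ITL0460, ITL0658, ITL0962, ITL1722, ITL1864, ITL1892 and ITL1913, which are read below. By distance to the nearest gene, the share listed in all 16 libraries was 11.8% under 500 bp, 15.9% at 500 to 2000 bp, 12.5% at 2000 to 5000 bp and 12.6% at 5000 bp or more.

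**Figure D1:**
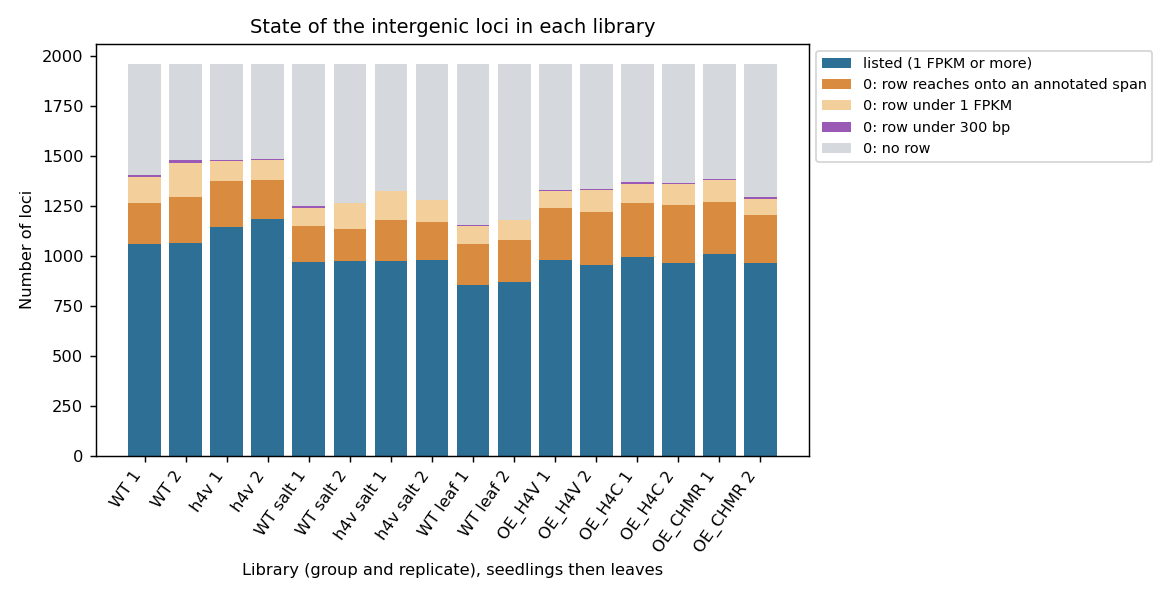
Number of loci (y axis) in each of the 16 libraries (x axis), split by whether the locus was listed or why its value is 0. The h4v libraries listed 1147 and 1183 loci, the 4 salt libraries 970 to 978, and the WT leaf libraries 854 and 867, the fewest.

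The number of loci listed differed between h4v and WT seedlings, between salt and plain medium and between WT leaf and the overexpression lines by more than between replicates, but the 3 lines overlapped one another. Among seedlings, h4v libraries listed 1147 and 1183 loci and WT libraries 1059 and 1065. The salt libraries of both genotypes listed 970 to 978 loci, although they held more assembled rows of all kinds, 34554 to 35327 against 32693 to 33552 in plain medium. In leaves, WT listed 854 and 867 loci and the overexpression lines 952 to 1011. The order was the same for loci at 5 FPKM or more between h4v (492 and 518) and WT (453 and 452). WT leaf had 398 and 388 such loci and the overexpression lines 404 to 452. In relative depth h4v was at 0.924 and 0.954 and WT seedlings at 1 and 1.203, h4v with salt was at 1.063 and 0.884 and WT with salt at 0.736 and 0.848, while WT leaf was at 0.615 and 0.666 and the overexpression lines at 0.545 to 0.857, and the part of depth in these counts was not tested. Replicates agreed less for loci than for genes. The median absolute difference between replicates on the log2(FPKM + 1) scale was 0.19 to 0.30 for loci and 0.12 to 0.23 for genes, and 239 to 348 loci per group were listed in only 1 of its libraries.

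The 10 loci with the highest mean level had varied patterns. ITL1869 (chr12:1770600-1774741) was the highest, at 961 and 1102 FPKM in h4v, 649 and 627 FPKM in WT, 235 and 292 FPKM in h4v with salt, and 280.2 and 289.9 FPKM in WT with salt. In leaf it was at 995 to 1767 FPKM, above every salt library and, in all 8 libraries, above WT seedlings. ITL1205 (chr6:28639369-28641593) was at 728 to 1134 FPKM in the seedling libraries and 311 to 581 FPKM in the leaf libraries. The annotated genes nearest to ITL1869 and ITL1205, Os12g0136600 at 1864 bp and Os06g0686900 at 954 bp, were at 0 to 1.15 FPKM and at 0. Assembled loci joined the first of these genes to its surroundings, so its values do not measure its expression.

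Other leading loci differed with salt or tissue. ITL0550 (chr3:10393661-10399910) was at 233 to 293 FPKM in the 4 salt libraries, 95.03 to 127 FPKM in the other seedlings and 64.9 to 79.1 FPKM in leaf. ITL1715 (chr10:19244928-19246774) was at 179 to 341 FPKM in leaf and 33.8 to 55.5 FPKM in seedlings. ITL1950 (chr12:22967185-22968805) was at 79.3 and 78.9 FPKM in WT seedlings and at 99.1 to 182 FPKM in every other library. ITL0191 and ITL0589 were also among the 10, but their values of 0 are libraries in which the row reached onto an annotated span, and they are not read further.

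Among the 263 loci listed in every library, the highest group mean was a median of 3.60 times the lowest. It was under 2 times in 29 loci and over 10 times in 23. ITL0881 (chr5:60244-70014), chosen after its values were seen as one of the most even, was at 5.69 to 9.17 FPKM over all 16 libraries. ITL0227 (chr1:38542722-38558384), chosen in the same way, was at 4.95 to 11.2 FPKM, and neither locus separated seedlings from leaves.

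In seedlings, the knockout was compared with WT on plain medium. Several loci that fell in h4v were also lowered by salt in WT. ITL0996 (chr5:24323077-24324435, 348 bp from Os05g0495200) was at 299 and 244 FPKM in WT, 16.7 and 21.3 FPKM in h4v, 8.95 and 6.73 FPKM in WT with salt, and 7.32 and 7.07 FPKM in h4v with salt. WT on plain medium thus stood above the other 3 groups with no overlap, and in leaf the locus was at 3.08 to 7.88 FPKM. On the log2(FPKM + 1) scale it fell by 3.77 ± 0.18 (SE) in h4v (adjusted p = 7.91e-05, limma with Benjamini-Hochberg adjustment) and by 4.95 ± 0.18 with salt in WT (adjusted p = 1.46e-05, limma). These comparisons share the 2 WT libraries. The gene beside it, Os05g0495200, was at 7.25 to 13.5 FPKM over the 8 seedling libraries.

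ITL1121 (chr6:12359113-12360126) had the same order at a higher level. It was at 667 and 875 FPKM in WT, 182 and 139 FPKM in h4v, 77.6 and 72.9 FPKM in WT with salt and 73.2 and 70.4 FPKM in h4v with salt. It fell by 2.26 ± 0.17 (SE) in h4v (adjusted p = 0.000367, limma) and by 3.33 ± 0.17 with salt in WT (adjusted p = 4.23e-05, limma). Os06g0318700, the gene 1009 bp away, stayed between 20.1 and 25.7 FPKM in those 8 libraries. ITL0962 (chr5:19340197-19345569) was at 80.7 and 77.0 FPKM in WT and at 4.03 to 16.7 FPKM in the other 6 seedling libraries. ITL0531 (chr3:6880178-6881310) was at 94.2 and 51.7 FPKM in WT against 3.87 to 12.3 FPKM in the other 6, and ITL0415 (chr2:24270062-24273683) at 83.9 and 88.0 FPKM in WT against 13.8 to 39.7 FPKM. In all 5 loci the 2 WT libraries on plain medium were the highest of the 8. Over ITL0962 and ITL0415, some library also had a row that reached onto an annotated span.

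Other loci were higher in h4v than in WT. ITL1734 (chr10:22213017-22214465) was at 102 and 100.5 FPKM in h4v, 22.5 and 25.1 FPKM in WT, 2.30 and 1.89 FPKM in WT with salt and 1.23 and 1.73 FPKM in h4v with salt. It rose by 2.04 ± 0.13 (SE) in h4v (adjusted p = 0.000212, limma) and fell with salt by 3.01 ± 0.13 in WT (adjusted p = 2.66e-05) and by 5.37 ± 0.13 in h4v (adjusted p = 9.74e-06), in the same fit. Its neighbour Os10g0563000, at 1942 bp, was at 28.5 to 40.5 FPKM throughout the seedlings. Another annotated span lay nearer to ITL1734, at 258 bp, and its level was not examined. ITL1383 (chr8:8631913-8632749) was at 20.5 and 17.9 FPKM in h4v and 4.30 and 4.57 FPKM in WT, with 9.37 to 14.6 FPKM in the salt libraries, and it rose by 1.89 ± 0.20 (SE) in h4v (adjusted p = 0.00119, limma). ITL1930 (chr12:17951349-17952080) was at 11.6 and 11.2 FPKM in h4v and 1.23 and 4.22 FPKM in WT. Its call was lost without either h4v replicate and without WT replicate 1, with a log2 change of 1.24 in the last case.

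Counted over the 453 loci listed in all 8 seedling libraries, 7 were higher and 11 lower in h4v than in WT at an adjusted p under 0.05 and a log2 change over 1.5 (limma, Benjamini-Hochberg over 14963 genes and loci). That is 3.97% of the loci. The background, all features of the fit, was 6.1% (1.86% higher and 4.24% lower), and among the 11505 genes at 1 FPKM or more in every seedling library 4.4% were called, so the share of loci was near that of genes of like detection. Without the fold limit, 109 loci were higher and 47 lower at an adjusted p under 0.05. The share of all features at that setting was not counted. The median log2 change was 0.24 over the loci and 0.14 over all features, and under median-of-ratios scaling 5 loci were higher and 14 lower. Loci that went from a listed value to 0 stand outside these counts.

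Salt in WT seedlings changed more loci. Of the 453 loci, 14 were higher and 22 lower with 120 mM NaCl, or 7.95%, against a background of 11.8% over all features (3.49% higher and 8.33% lower) and 8.01% over genes at 1 FPKM or more in every library. In h4v, 7 were higher and 17 lower, or 5.3%, against 8.81% (2.58% higher and 6.23% lower) and 5.54%. Under median-of-ratios scaling the h4v counts were 11 higher and 15 lower. The median change of all features in h4v was -0.12, and that of the loci -0.17. The salt comparisons in the 2 genotypes have no library in common. A total of 3 loci were called higher in both, 21.4% of those higher in WT and 42.9% of those higher in h4v, and 5 were called lower in both, 22.7% and 29.4%. The same overlap was not counted over all features.

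The 3 loci that rose with salt in both genotypes were listed in no leaf library. ITL0182 (chr1:33703325-33703979) was at 53.1 and 48.0 FPKM in WT with salt and 53.1 and 52.2 FPKM in h4v with salt, against 7.31 to 13.9 FPKM in the 4 plain libraries. ITL1696 (chr10:16515825-16516732) was at 53.5 and 29.0 FPKM in WT with salt and 22.5 and 21.3 FPKM in h4v with salt, against 2.96 to 5.88 FPKM. ITL1697 (chr10:16575370-16575928) was at 9.48 and 36.1 FPKM in WT with salt and 26.9 and 35.3 FPKM in h4v with salt, against 2.17 to 4.28 FPKM. Salt and plain libraries did not overlap in any of the 3, and ITL0182 rose by 1.94 ± 0.17 (SE) in WT and 2.48 ± 0.17 in h4v (adjusted p = 0.000314 and 0.000175, limma). The calls of ITL1697 were lost without single libraries, with adjusted p of 0.0697 and 0.0735 in WT (limma) without either plain WT replicate. The gene nearest to ITL1697, Os10g0453900 at 5680 bp, was itself at 22.4 to 33.3 FPKM with salt and lower in all 4 libraries without. Another annotated span lay nearer to ITL1697, at 226 bp, and its level was not examined.

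The loci that fell in both genotypes were ITL0153, ITL0197, ITL0899, ITL1734 and ITL1864. ITL0153 (chr1:30324137-30325087) was at 70.0 and 66.9 FPKM in WT, 37.9 and 43.1 FPKM in h4v, and 2.33 to 4.70 FPKM in the 4 salt libraries. It fell by 3.64 ± 0.19 (SE) in WT and 3.36 ± 0.19 in h4v (adjusted p = 4.18e-05 and 8.62e-05, limma), and its leaf rows all reached onto an annotated span. ITL1864 (chr12:1156678-1158703) was at 54.1 and 55.1 FPKM in WT, 70.8 and 70.7 FPKM in h4v, 13.5 and 13.6 FPKM in WT with salt and 8.54 and 9.91 FPKM in h4v with salt. ITL0899 was at 31.3 and 33.7 FPKM in WT, 8.99 and 10.9 FPKM in h4v, and 2.50 to 3.14 FPKM with salt. ITL1869, the highest locus of the set, fell with salt by 1.97 ± 0.12 (SE) in h4v (adjusted p = 0.000117, limma). ITL0483 (chr2:35584345-35589260) was at 19.3 and 23.3 FPKM in WT with salt and 2.91 and 3.32 FPKM in WT, a rise of 2.43 ± 0.16 (SE, adjusted p = 0.000113, limma), while h4v was at 12.2 and 12.1 FPKM with salt and 8.15 and 6.04 FPKM without.

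**Figure D2:**
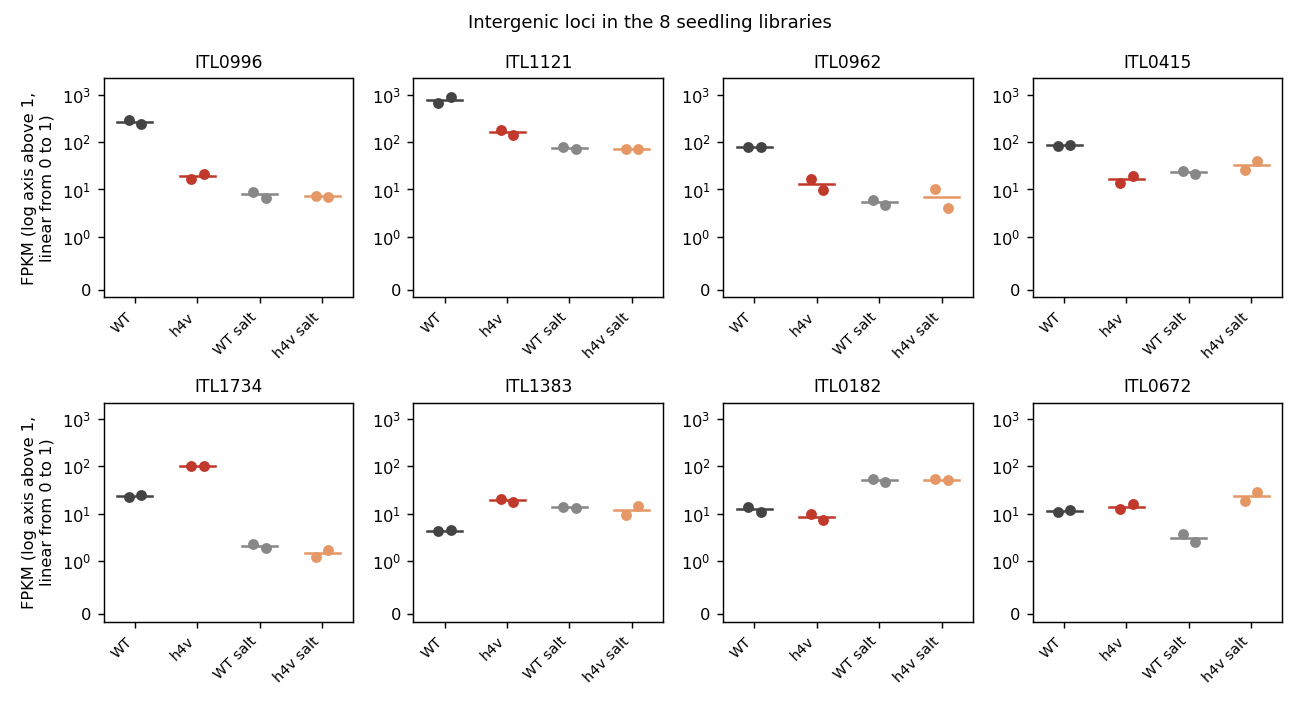
FPKM of 8 loci (y axis, log scale above 1 FPKM) in the 4 seedling groups (x axis), with a point per library and a line at the mean of the 2 replicates. ITL0996, ITL1121, ITL0962 and ITL0415 were highest in WT on plain medium, ITL1734 and ITL1383 highest in h4v, ITL0182 high in the 4 salt libraries, and ITL0672 low in WT with salt alone.

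With salt, few loci separated the genotypes. Of the 453 loci, 1 was higher in h4v with salt than in WT with salt and 0 were lower, or 0.221%, against a background of 0.675% over all features (0.414% higher and 0.261% lower) and 0.13% over genes at 1 FPKM or more in every library. At an unadjusted p under 0.05 (limma), with no fold limit, 38 were higher and 35 lower, and the share of all features was not counted at that setting. The 1 locus was ITL0672 (chr3:31550150-31550895), at 18.8 and 29.1 FPKM in h4v with salt and 3.79 and 2.55 FPKM in WT with salt, a difference of 2.56 ± 0.25 (SE) on the log2(FPKM + 1) scale (adjusted p = 0.00958, limma). On plain medium the genotypes were closer, at 12.4 and 16.1 FPKM in h4v and 10.99 and 11.9 FPKM in WT, and leaf was at 7.68 to 14.6 FPKM. Leaving out any 1 of the 4 salt libraries gave 2 called loci in place of 1.

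The interaction of genotype and salt, the difference between the salt response of h4v and that of WT, was called for 23 of the 453 loci by limma. The response was higher in h4v for 12 and lower for 11, or 5.08% in all, against a background of 6.95% over all features (4.16% higher and 2.79% lower) and 5.38% over genes at 1 FPKM or more in every library. The median interaction was -0.25 over the loci and -0.16 over all features, and the split depended on the setting. It was 19 and 6 under median-of-ratios scaling, 24 and 44 at a fold limit of 1, 18 and 27 with a pseudocount of 0.1, and 35 and 76 at an adjusted p under 0.05 (limma) with no fold limit. The split over all features was not counted in these settings. ITL0996 had the largest positive term, 3.67 ± 0.26 (SE, adjusted p = 0.000522, limma), since it fell with salt from 271 ± 39.0 to 7.84 ± 1.57 FPKM in WT (mean ± SD, n = 2) and from 19.0 ± 3.27 to 7.20 ± 0.175 FPKM in h4v. ITL1734 had a term of -2.36 ± 0.19 (SE, adjusted p = 0.000769, limma). ITL1806 (chr11:14507113-14508053) was at 109 and 117 FPKM in h4v, 43.3 and 38.9 FPKM in h4v with salt, 39.2 and 42.6 FPKM in WT and 60.4 and 51.4 FPKM in WT with salt, with a term of -1.88 ± 0.15 (SE, adjusted p = 0.000813, limma). Both h4v libraries with salt were below both on plain medium, and both WT libraries with salt were above, but neither salt change passed the fold limit on its own, at -1.44 in h4v and 0.44 in WT. All the interaction terms use the h4v and WT libraries on plain medium that the comparison of genotypes uses.

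Some seedling loci were listed in both libraries of 1 group and in no other seedling library. There were 65 such loci in h4v, 59 in WT, 14 in h4v with salt and 17 in WT with salt. With rows onto annotated spans or under 300 bp set aside, these were 3.38%, 2.76%, 0.552% and 0.552% of the 1448 loci found in both replicates of a seedling group. Of 16964 annotated genes found in the same way, 0.961%, 1.18%, 0.336% and 0.531% were at 1 FPKM or more in the same group alone, so that h4v and WT had the opposite order in genes. These shares were not tested. Most of the loci were low, with median levels of 1.68 to 2.50 FPKM per group, and only 36, 33, 6 and 5 of them had no row of any kind in the other seedling libraries. ITL0575 (chr3:15011730-15012413) was at 32.3 and 31.3 FPKM in h4v, and its only other values were 2.98 and 2.86 FPKM in OE_H4C leaf and 18.6 FPKM in 1 OE_CHMR leaf library. ITL1466 (chr8:23882536-23883136) was at 14.5 and 13.1 FPKM in WT seedlings and had no row in any of the other 14 libraries. ITL1319 (chr7:28051066-28053384) was at 10.88 and 10.95 FPKM in h4v with salt, with rows under 1 FPKM in 3 other libraries and none in 11. ITL0895 was at 7.03 and 4.98 FPKM in h4v with salt and ITL0460 at 11.9 and 15.0 FPKM in WT. The values of 0 of ITL1885, ITL0837 and ITL0287 are all rows that reached onto an annotated span, so they are not read as loci of 1 group.

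In leaves, each overexpression line was compared with the same 2 WT libraries. Some loci separated WT leaf from all 3 lines. ITL0785 (chr4:23004652-23005279) was at 1048 and 652 FPKM in WT leaf, at 0 and 1.70 FPKM in OE_H4V, 1.70 and 2.04 FPKM in OE_H4C and 3.83 and 2.86 FPKM in OE_CHMR, and had no row in the 8 seedling libraries. ITL1366 (chr8:5027574-5030238) was at 65.7 and 58.9 FPKM in WT leaf, with no row in the 6 overexpression libraries, and at 4.65 and 4.30 FPKM in 1 h4v and 1 WT seedling library. ITL0590 (chr3:17727044-17729076) was at 68.0 and 64.5 FPKM in WT leaf and listed in no overexpression library, but its 11 values of 0 over the 2 tissues were not missing rows, as 8 were rows under 1 FPKM and 3 reached onto an annotated span. ITL1366 and ITL0590 were named because WT leaf alone listed them, so their separation from the lines is how they were chosen.

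Other loci had the opposite pattern. ITL1424 (chr8:16252487-16259447) had no row in either WT leaf library and was at 249 and 38.9 FPKM in OE_H4V, 315 and 418 FPKM in OE_H4C and 965 and 39.9 FPKM in OE_CHMR. Replicates of OE_H4V and of OE_CHMR thus lay far apart, but all 6 libraries were above WT leaf. In seedlings it was at 34.0 and 30.0 FPKM in WT and 44.96 and 38.5 FPKM in h4v, with 5.20 to 19.4 FPKM with salt. ITL0885 (chr5:1406564-1415067) had no row in WT leaf and was at 72.8 to 96.8 FPKM in the 6 overexpression libraries and 42.8 to 62.1 FPKM in the 4 plain seedling libraries. ITL1383, described above, was at 18.7 to 28.0 FPKM in the 6 libraries with no row in WT leaf. These 3 loci were thus listed in WT seedlings and not in WT leaf. ITL0885 was picked after its values were seen.

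Counted over loci, 92 were listed in both WT leaf libraries and in no overexpression library, and 86 in all 6 overexpression libraries and neither WT leaf library. The same counts for the lines were 24 and 3 for OE_H4V, 33 and 8 for OE_H4C and 33 and 3 for OE_CHMR. With rows onto annotated spans set aside, 73 loci were found in WT leaf alone and 83 missing from it alone, 5.48% and 6.24% of the 1331 loci found in both replicates of a leaf group. Of 13518 annotated genes found at 1 FPKM or more in the same way, 1.5% were at 1 FPKM or more in WT leaf alone and 2.22% under 1 FPKM in WT leaf alone. These shares describe the libraries and were not tested. Regeneration from callus and the transgenes cannot be told apart in them.

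**Figure D3:**
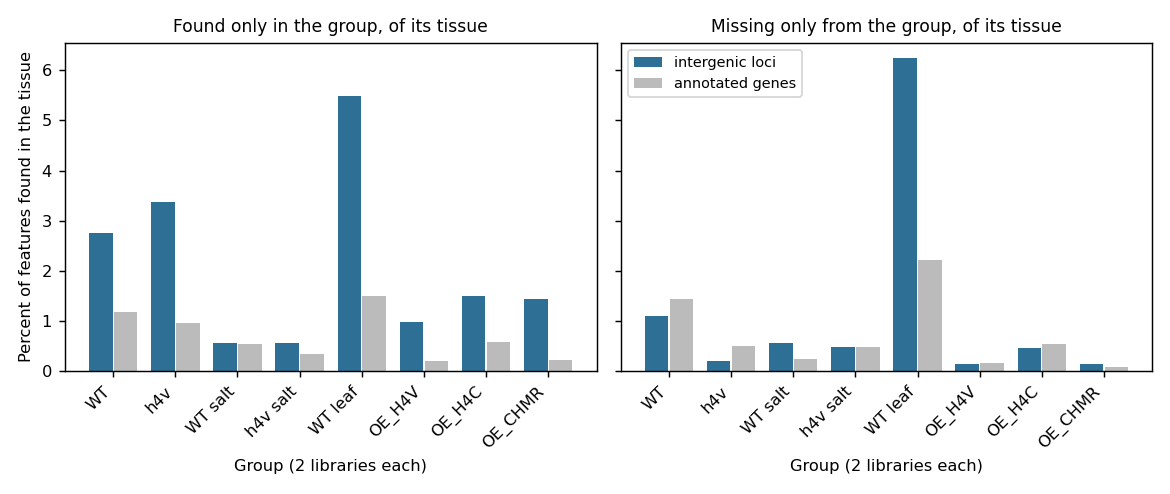
Percent of features found in a tissue (y axis) that were found only in 1 group (left) or missing only from 1 group (right), for intergenic loci and annotated genes, by group (x axis). WT leaf stood out on both sides, at 5.48% and 6.24% of loci against 1.5% and 2.22% of genes, and the overexpression lines were at 0.977% to 1.5% and at 0.15% to 0.451% of loci.

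Among the 389 loci listed in all 8 leaf libraries, changes were fewer. In OE_H4V 1 was higher and 1 lower than in WT, or 0.514%, against a background of 3.9% over all 12283 features (2.48% higher and 1.42% lower) and 0.8% over the 9499 genes at 1 FPKM or more in every leaf library. In OE_H4C 4 were higher and 10 lower, or 3.6%, against 7.51% (4.46% higher and 3.05% lower) and 3.26%. In OE_CHMR 1 was higher and 1 lower, or 0.514%, against 4.42% (2.96% higher and 1.46% lower) and 1.02% (limma, Benjamini-Hochberg, all 3 lines). These counts moved with single libraries. OE_H4V had 7 calls without its replicate 2 and 3 without its replicate 1, OE_CHMR had 8 without its replicate 2, and OE_H4C had 8 without its replicate 1 and 7 without WT leaf replicate 1. Without WT leaf replicate 2, OE_H4V and OE_CHMR had 1 call each. The median change of all features in OE_H4C was 0.18 and that of the loci 0.06, and under median-of-ratios scaling 2 were higher and 17 lower.

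ITL0420 (chr2:25410154-25411122) was the 1 locus called higher in OE_H4V and in OE_CHMR, and the largest rise in OE_H4C. It was at 4.98 and 4.38 FPKM in WT leaf, 36.0 and 21.9 FPKM in OE_H4V, 52.4 and 38.03 FPKM in OE_H4C and 25.6 and 36.5 FPKM in OE_CHMR, and at 17.8 to 63.3 FPKM in seedlings. WT leaf was thus below the other 14 libraries. The rise was 2.36 ± 0.29 (SE), 3.01 ± 0.29 and 2.48 ± 0.29 in the 3 lines (adjusted p = 0.00539, 0.0014 and 0.00411, limma), and the call was lost in OE_H4V without either WT leaf replicate (adjusted p = 0.0544 and 0.0662, limma) and in OE_CHMR without WT leaf replicate 2 (adjusted p = 0.0547, limma). ITL0954 (chr5:17432937-17433694) was at 17.5 and 17.6 FPKM in WT leaf, 3.55 and 5.12 FPKM in OE_H4V, 3.31 and 2.96 FPKM in OE_H4C and 8.97 and 7.47 FPKM in OE_CHMR. It was the locus called lower in OE_H4V, by 1.81 ± 0.19 (SE, adjusted p = 0.00226, limma), and was lower by 2.17 ± 0.19 in OE_H4C. ITL0799 (chr4:24454638-24459074) was the locus called lower in OE_CHMR, at 6.74 and 5.95 FPKM against 21.4 and 21.8 FPKM in WT leaf, with 8.82 to 12.4 FPKM in the other lines.

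Canonical H4 overexpression had calls of its own. ITL1121, the locus that fell in h4v seedlings, was at 17.5 and 22.8 FPKM in OE_H4C, against 117 and 98.3 FPKM in WT leaf, 67.7 and 104 FPKM in OE_H4V and 56.4 and 154 FPKM in OE_CHMR. It fell by 2.37 ± 0.47 (SE, adjusted p = 0.0173, limma), but the call was lost without any 1 of the 4 libraries compared (adjusted p = 0.0618 to 0.114, limma). ITL0222 (chr1:37973315-37974820), with no row in seedlings, was at 1.84 and 2.33 FPKM in OE_H4C, 15.5 and 10.4 FPKM in WT leaf and 4.48 to 7.26 FPKM in the other lines. ITL0952 and ITL0018 rose in OE_H4C by 1.91 ± 0.41 (SE) and 1.61 ± 0.33 (adjusted p = 0.0227 and 0.0197, limma), and both calls were lost without single libraries. Both were also above WT leaf in every library of OE_H4V and OE_CHMR, at 9.51 to 23.3 FPKM against 3.65 and 4.22 FPKM for ITL0952 and at 6.62 to 16.3 FPKM against 3.26 and 4.08 FPKM for ITL0018. The differences between lines were not tested.

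Loci listed in a single overexpression line included 2 that lie 12611 bp apart on chromosome 7. ITL1227 (1904101 to 1905663) was at 37.0 and 53.4 FPKM and ITL1226 (1891013 to 1891489) at 28.1 and 45.5 FPKM in OE_H4C, and neither had a row in the other 6 leaf libraries. In seedlings both were low, at 0 to 12.1 FPKM and 0 to 9.31 FPKM. ITL1904 (chr12:8237450-8237856) was at 14.6 and 35.9 FPKM in OE_CHMR, with no row in any of the other 14 libraries. ITL1674 (chr10:13312281-13312978) was at 2.45 and 6.39 FPKM in OE_H4V and had no row elsewhere. ITL1892 was at 5.63 and 7.04 FPKM in OE_H4V and at 0 to 3.46 FPKM in seedlings. Of its values of 0 over both tissues, 7 had no row and 2 were rows onto an annotated span. The values of 0 of ITL1234, listed in OE_CHMR at 22.9 and 27.1 FPKM, are rows onto an annotated span.

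**Figure D4:**
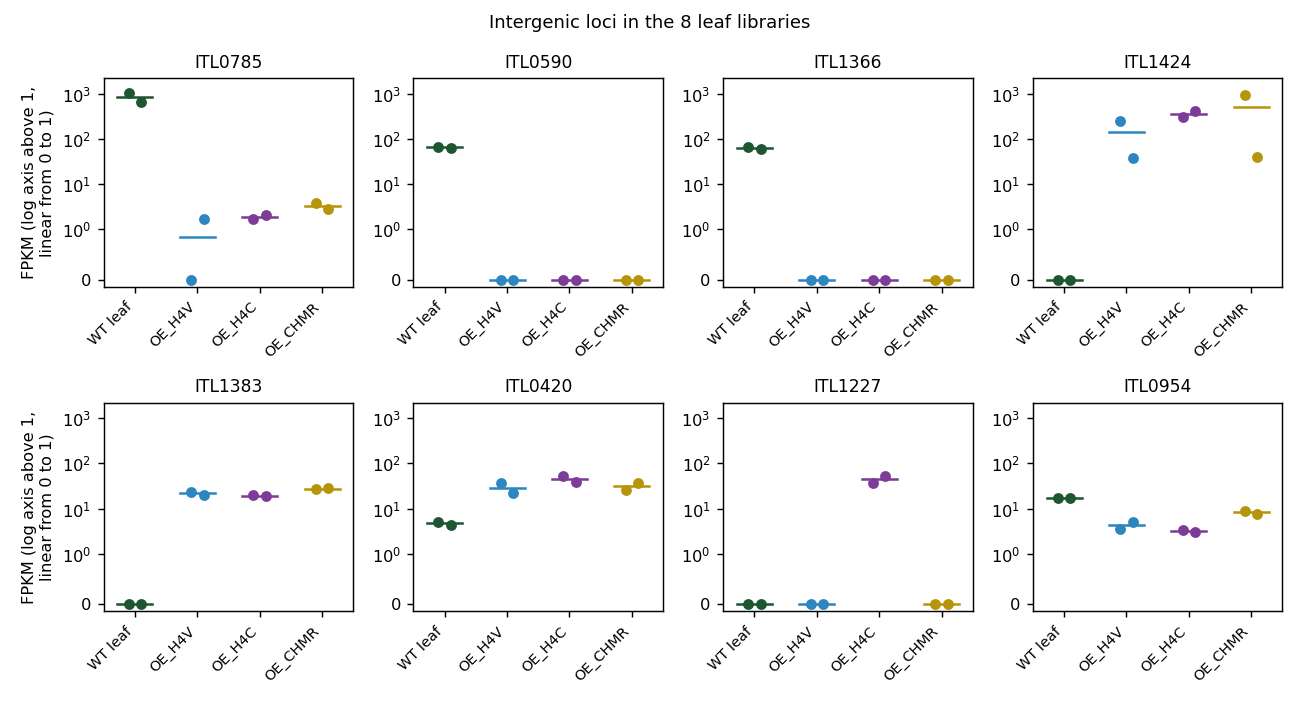
FPKM of 8 loci (y axis, log scale above 1 FPKM) in the 4 leaf groups (x axis), with a point per library and a line at the mean of the 2 replicates. ITL0785, ITL0590 and ITL1366 were high in WT leaf, ITL1424, ITL1383 and ITL0420 low or not listed there, ITL1227 listed in OE_H4C alone, and ITL0954 lower in the 3 lines.

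WT leaf was also compared with WT seedlings on plain medium, in a fit over all 16 libraries. These groups also differ in age and growth conditions, which cannot be told apart from tissue. Of the 263 loci listed throughout, 34 were higher and 34 lower in leaf, or 25.9%, against a background of 31.9% over 13759 features (5.76% higher and 26.1% lower) and 18.2% over the 8239 genes at 1 FPKM or more in every library. The median change was 0.08 over the loci and -0.45 over all features, which include features under 1 FPKM in some libraries. ITL0074 (chr1:11610775-11613283) was at 172 and 139 FPKM in WT leaf and 1.93 and 1.62 FPKM in WT seedlings, a rise of 5.81 ± 0.14 (SE, adjusted p = 1.23e-10, limma). It was at 106 to 174 FPKM in the overexpression lines and at 7.71 to 11.2 FPKM in the other 6 seedling libraries, so that WT on plain medium was the lowest group. ITL0242 (chr1:40929897-40932512) was at 131 and 109 FPKM in WT leaf and 6.76 and 5.88 FPKM in WT seedlings, with 35.1 to 41.5 FPKM in the salt libraries. ITL1722 (chr10:20724954-20731000) was at 249.6 and 52.9 FPKM in WT leaf and 2.82 and 3.07 FPKM in WT seedlings. ITL0658 (chr3:30181485-30185117) was at 111 to 186 FPKM in the 8 seedling libraries and 2.34 to 8.32 FPKM in the 8 leaf libraries, a fall of 4.39 ± 0.31 (SE, adjusted p = 4.26e-07, limma) between the WT groups.

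A total of 51 loci were listed in all 8 seedling libraries and no leaf library, and 19 in all 8 leaf libraries and no seedling library. With rows onto annotated spans or under 300 bp set aside these were 39 and 14 loci, 1.99% and 0.713% of the set, and of 17806 annotated genes found in both replicates of a group, 8.2% and 0.354% had the same patterns at 1 FPKM. The difference between loci and genes was not tested, and tissue cannot be told apart from age and growth conditions here. ITL0998 (chr5:24783631-24784117) was the highest of the seedling loci, at 138 and 141 FPKM in WT, 64.0 and 70.1 FPKM in h4v and 91.3 to 118 FPKM with salt. ITL0864 (chr4:32797730-32798059) was at 107 to 117 FPKM in the salt libraries and 41.1 to 51.4 FPKM in the others, and ITL0425 (chr2:26336842-26338014) at 36.8 to 52.8 FPKM with salt and 69.1 to 94.1 FPKM without. Of the leaf loci, ITL1675 (chr10:13337385-13338576) was at 42.2 to 146 FPKM and ITL1676, which starts 10439 bp further on, at 10.53 to 35.2 FPKM. ITL0812 (chr4:25949563-25950382) was at 11.03 to 28.6 FPKM. No row covered any of these 6 loci in the other tissue.

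**Figure D5:**
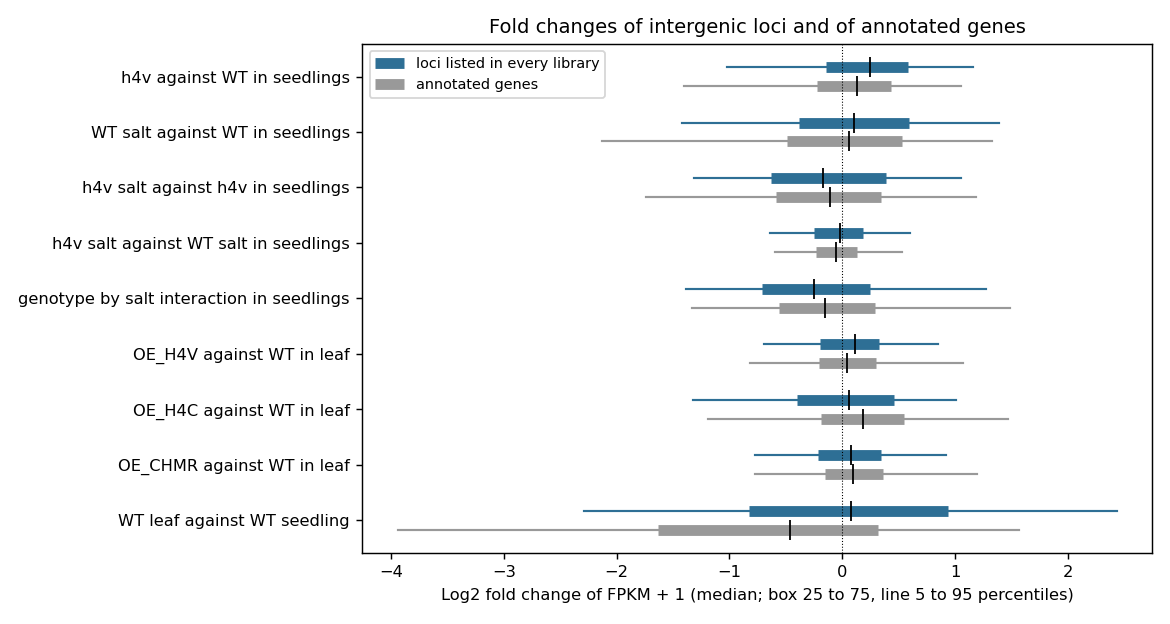
Log2 fold changes of FPKM + 1 (x axis) in the 9 comparisons (y axis), as median, 25th to 75th and 5th to 95th percentiles, for loci listed in every library of the fit and for annotated genes tested in it. The 5th percentile of loci lay above that of genes for h4v against WT, for salt in both genotypes and for leaf against seedling. In the last of these the medians were 0.08 and -0.47. Loci that fell to 0 are not in this plot, but genes needed only a mean of 1 FPKM and stayed in where some libraries were lower. The loci and genes were thus not chosen alike, and the part of this in the differences was not tested.

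The loci were compared with the genes beside them, since a locus next to a gene can be part of that gene's transcript. In seedlings 225 of the 453 loci had a nearest gene that could be tested. Across these loci, Pearson's r between the log2 change of the locus and that of the gene was -0.004 for h4v against WT, -0.018 for salt in WT and 0.039 for salt in h4v. In leaf, over 155 loci, it was 0.087 for OE_H4V, 0.134 for OE_H4C and 0.186 for OE_CHMR, and over 121 loci it was 0.036 for leaf against seedling. The points share libraries and are a description. Of the 21 loci called in WT with salt whose gene was tested, 7 changed in the direction of the gene and in 0 was the gene called in that direction too, and in leaf against seedling the counts were 22 and 8 of 40. Genes to which a library joined a locus were left out of the fits, so genes with long extensions are missing from this comparison. For some loci an annotated span outside the gene list lay nearer than the gene compared.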

How the data were processed

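Per the submitters' processing notes, the authors used Trimmomatic for trimming, HISAT2 for mapping (IRGSP1.0) and Cufflinks 2.2.1 for assembly in each library, and the deposited tables hold FPKM with confidence bounds per locus of that library. The libraries were made with a directional kit. The submitters' labels give seedlings as 20 days old, and the methods of the study give a younger age. Read counts were not used here, so no count test was run. A span was annotated if listed under a gene identifier in any library or present in all 16. BEDTools 2.31.1 gave overlaps and merged loci. Genes for comparison were 30384 spans of at least 200 bp, with the FPKM of loci lying by at least 50% within them. Loci and genes that averaged 1 FPKM or more were tested together on the log2(FPKM + 1) scale in R 4.3.3 by limma 3.58.1 (trended eBayes, 1 mean per group), with Benjamini-Hochberg adjustment over all features, and called at an adjusted p under 0.05 and an absolute log2 change over 1.5. Fold changes on this scale understate those of low loci. On simulated data the fit recovered 184 of 200 changed features among 14963 in seedlings, with 2 false calls, and 187 of 200 among 12283 in leaf, with 6. Every changed feature was shifted by 3 on the log2 scale, well over the limit of 1.5, and had a mean above 2 on the log2(FPKM + 1) scale. Recovery of smaller changes, of lower features and of loci alone was thus not tested. Named loci are the 10 highest, the 3 largest rises and falls called per comparison, the 2 highest listed in 1 group of a tissue, the 3 highest of each tissue and the 3 longest, with the loci at the limits of the rule, and others are said to be chosen after their values were seen, or fell in both salt comparisons. Members and lists were chosen with earlier results of these data known. The only RefSeq genes at hand were those of another assembly, and none of the 1675 identifiers nearest to loci could be matched to them. Genes are thus given by identifier, which does not mean that they have no names. No genome was used here, so no sequences are shown. Other work was done in Python 3.11.15 with pandas 2.3.3, NumPy 2.4.6 and matplotlib 3.10.9.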

Additional observations from a re-analysis of the deposited data

Results flagged for a closer look

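The salt response differed between h4v and WT seedlings, by limma's interaction term with Benjamini-Hochberg adjustment, in 23 of 453 loci. Among the named loci, the response was higher in h4v for ITL0996 (3.67 on the log2(FPKM + 1) scale), ITL0415 (2.80), ITL0962 (2.77), ITL0531 (2.39), ITL0672 (2.28) and ITL1121 (2.19). It was lower in h4v for ITL1734 (-2.36), ITL1383 (-2.09), ITL1806 (-1.88), ITL0483 (-1.72) and ITL1424 (-1.68). Of these, ITL0962 lost its call without h4v replicate 2, either WT replicate or WT salt replicate 2 (adjusted p = 0.0593 to 0.0664, limma), and ITL1424 without any 1 of 7 of the 8 libraries, with a term of -1.27 without h4v salt replicate 2. ITL1424 also lost its call under median-of-ratios scaling, with a term of -1.487. ITL0483 lost its call when the FPKM of the rows of a locus were summed, with a term of -1.494. With 2 libraries per group, single outlying libraries could not be tested for.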

How the results depend on the processing

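The number of loci in the set was 2028 and 1732 at minimum lengths of 200 and 500 bp and 1374 at 2 FPKM, but 781 at 5 FPKM, 1291 if found in 2 groups, 841 at 1000 bp or more from every annotated span, 3425 if spans without an identifier did not count as annotated, and 1160 if no library had a row reaching onto an annotated span, an alternative chosen after seeing the data. In the order h4v, salt in WT, salt in h4v, h4v with salt against WT with salt, interaction, OE_H4V, OE_H4C, OE_CHMR and leaf against seedling, a fold limit of 1 gave 56, 80, 67, 2, 68, 6, 42, 12 and 112 calls. At 1000 bp or more from annotated spans, with fewer loci tested, the calls were 7 (h4v), 13 (salt, either genotype), 14 (interaction), 1 (OE_H4V), 9 (OE_H4C), 1 (OE_CHMR) and 28 (leaf against seedling). Without rows onto annotated spans, salt in WT had 23. A pseudocount of 0.1 gave 45 for the interaction and 4 for OE_H4V. Counting rows under the limits gave 6 for OE_H4V and 7 for OE_CHMR. Unadjusted p gave 3 for h4v with salt against WT with salt and 5 for OE_CHMR, where 159 of 14963 and 739 of 12283 features passed. At the fold limit of 1, with the pseudocount of 0.1 and with rows under the limits, the share of all features was not counted. Nor was it counted in the fits without 1 library. Where the construction does not show why a count moved, the cause was not tested. Leaving out 1 library gave 16 to 21 (h4v), 35 to 39 (salt in WT), 18 to 28 (salt in h4v), 1 to 2 (h4v with salt against WT with salt), 24 to 31 (interaction), 1 to 7 (OE_H4V), 7 to 15 (OE_H4C), 1 to 8 (OE_CHMR) and 64 to 69 (leaf against seedling). The lone library left in a group was assumed to vary like the others. Same-numbered replicates did not deviate together (r = -0.06 to 0.05), and a replicate block gave 24 calls for the interaction in place of 23 and the counts of the main analysis elsewhere. Over the 7 alternatives that recompute the values or the filter, replicate block included, and the fits without 1 library, 0 of the 73 tests called for named loci changed direction where a value was given, and 55 kept their call throughout. Depth limits low loci. The 10th percentile of fragments per row was as low as 9.09, even with rows whose lower confidence bound was 0 left out.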

Other observations

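The loci were spread over all chromosomes, from 4.95 per 100 annotated genes on chromosome 7 to 7.96 on chromosome 8. Neighbouring loci were a median of 114361 bp apart, and 57 of 1951 gaps were under 1000 bp. The longest was ITL1913 (chr12:9987143-10013684, 26542 bp), at 4.84 and 3.14 FPKM in h4v, 7.82 and 7.39 FPKM in WT and 1.19 to 2.07 FPKM in the salt libraries. In leaf it was at 7.92 to 15.8 FPKM in the overexpression lines and 5.85 FPKM in 1 WT library, while in the other its row reached onto an annotated span. With salt in WT it fell by 1.58 ± 0.23 (SE) on the log2(FPKM + 1) scale (adjusted p = 0.00235, limma), a call that was lost without WT salt replicate 1 (log2 change of -1.49). ITL0547 (chr3:9797156-9822107) was at 1.99 to 5.02 FPKM in seedlings and 7.78 to 25.8 FPKM in leaf. ITL0132 (chr1:26249324-26274246) was listed in 10 libraries at 8.12 to 21.7 FPKM.

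ITL1823 (chr11:20700777-20701722), chosen after its values were seen, differed between groups of both tissues. It was at 61.5 and 70.6 FPKM in h4v seedlings, 31.4 and 52.8 FPKM in h4v with salt and 14.1 and 13.6 FPKM in WT, and had no row in either WT salt library. In leaf it had no row in WT, and was at 2.78 and 2.67 FPKM in OE_H4V, 50.9 and 18.6 FPKM in OE_H4C and 90.2 and 88.8 FPKM in OE_CHMR. ITL0862 (chr4:32619484-32620138) was at 346 and 123 FPKM in WT leaf and at 0 to 19.7 FPKM in the overexpression lines. The 2 values of 0 of this locus are rows under 300 bp, so they do not give its level. In seedlings it was at 6.70 and 5.32 FPKM in h4v and 22.1 to 65.7 FPKM in the other groups, and its fall in h4v (log2 change of -2.49 ± 0.51, SE, adjusted p = 0.0145, limma) lost its call without either h4v replicate.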
